A study of Mus musculus with 12 samples.

Results

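The genes of glycolysis and of the response to low oxygen were followed in mouse small-intestinal organoids treated with bile acids. The set comprised 34 genes chosen by symbol, of 32587 gene rows in the tables: 14 enzymes of the path from glucose to lactate and 20 other genes known to be induced by hypoxia. All 34 were found, and all 34 reached at least 1 TPM in all 12 libraries, so none was lost to the filter that left 11952 rows for testing. TPM, the unit of the tables, is a length-normalised share of a library's RNA, so levels can be compared between genes.

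Organoids are epithelial cultures grown from intestinal stem cells. These were wild-type and labelled as duodenum, kept in IntestiCult growth medium, and exposed after 2 days of culture to a bile acid or to its solvent, dimethyl sulfoxide (DMSO). The acids were CA (cholic acid), CDCA (chenodeoxycholic acid) and DCA (deoxycholic acid), and each of the 4 groups had 3 libraries. Each acid is labelled as given at 50 mmol/L, a unit in doubt for bile acids, and the exposure is given as 2 days in a sample field and as 96 hours in the protocol. CA and CDCA are primary bile acids made in the liver, and DCA is made from CA by gut bacteria. CDCA and DCA each lack a hydroxyl group that CA has, at different positions. Whether replicates were separate cultures or animals is not labelled, and p-values therefore reflect only the spread among these samples, which may be technical. Read depth is unknown because TPM keeps no counts, and no counting interval can be given.

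Glycolysis splits glucose into pyruvate in the cytosol, and lactate dehydrogenase turns pyruvate into lactate when mitochondria do not take it up. The hypoxia-inducible factors (HIF) are pairs of an alpha and a beta subunit. Prolyl hydroxylases mark the alpha subunit for destruction while oxygen is present, so that HIF is controlled mainly at the protein level, and in low oxygen HIF activates genes for glucose uptake, glycolysis, acid handling and vessel growth. In the intestine, the epithelium lies along an oxygen gradient that falls towards the lumen, and HIF activity is a normal feature of the epithelial surface.

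HIF binds the short motifs ACGTG and GCGTG. Promoters were available from the RefSeq table (build GRCm38.p6, whereas the expression tables were made on GRCm39) for 33 of the 34 genes, as 300-base windows from 250 bases before to 50 bases after a gene's start. Ndrg1 was not in the table. Among 33 genes, 31 (93.9%) had at least 1 match to either motif on either strand in at least 1 window, 12 of the 14 enzymes and 19 of the 19 other genes. The same was true of 68.1% of the 9465 tested genes in the table and of 46.7% of all its 27025 genes. ACGTG alone was found in 24 of 33 (72.7%) against 29.8% of tested genes. A gene with more windows has more chances of a match, and the 33 genes had 50 windows where the 9465 tested genes had 12067. Per window, either motif was in 78% of the windows of the set and 62.1% of those of tested genes, ACGTG in 56% and 25.7%, and GCGTG in 52% and 50.4%. A match is a description of the letters and not evidence of binding. A match on a strand can overlap a match on the opposite strand, as in CACGTG, which is also the E-box motif. The windows held a median of 21 CG dinucleotides, against 20 in the windows of tested genes and 7 in all windows, and both motifs contain CG. Of the 6 windows printed here, Car9 and Ankrd37 belong to the only genes called under all 3 acids, Pgk1 and Ldha to abundant enzymes, Gpi1 to the enzyme with the largest increase under DCA and Hk2 to the only gene of the set that fell. Each is given 5′ to 3′ on the gene's strand, with matches to either motif or its reverse complement in capitals. The windows are Car9 at chr4:43506776-43507075 (plus strand), Ankrd37 at chr8:45999801-46000100 (minus), Pgk1 at chrX:106186850-106187149 (plus), Ldha, the upstream of 2 windows, at chr7:46845554-46845853 (plus), Gpi1 at chr7:34230287-34230586 (minus) and Hk2 at chr6:82774405-82774704 (minus).
Car9: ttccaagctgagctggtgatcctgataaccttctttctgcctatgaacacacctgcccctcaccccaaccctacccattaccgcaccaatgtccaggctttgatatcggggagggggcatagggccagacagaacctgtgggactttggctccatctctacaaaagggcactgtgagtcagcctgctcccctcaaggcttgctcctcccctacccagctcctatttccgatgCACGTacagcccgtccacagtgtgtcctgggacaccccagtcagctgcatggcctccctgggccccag
Ankrd37: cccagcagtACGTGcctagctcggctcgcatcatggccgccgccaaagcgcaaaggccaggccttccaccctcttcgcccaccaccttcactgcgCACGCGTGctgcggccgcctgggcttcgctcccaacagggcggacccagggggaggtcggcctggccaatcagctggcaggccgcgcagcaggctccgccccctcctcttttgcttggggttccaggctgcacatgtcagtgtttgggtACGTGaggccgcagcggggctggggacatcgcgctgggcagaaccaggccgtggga
Pgk1: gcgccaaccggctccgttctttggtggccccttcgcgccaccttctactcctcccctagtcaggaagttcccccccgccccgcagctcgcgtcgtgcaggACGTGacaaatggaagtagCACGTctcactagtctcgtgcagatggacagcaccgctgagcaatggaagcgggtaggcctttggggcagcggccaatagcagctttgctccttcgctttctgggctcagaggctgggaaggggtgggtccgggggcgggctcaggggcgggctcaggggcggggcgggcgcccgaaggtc
Ldha: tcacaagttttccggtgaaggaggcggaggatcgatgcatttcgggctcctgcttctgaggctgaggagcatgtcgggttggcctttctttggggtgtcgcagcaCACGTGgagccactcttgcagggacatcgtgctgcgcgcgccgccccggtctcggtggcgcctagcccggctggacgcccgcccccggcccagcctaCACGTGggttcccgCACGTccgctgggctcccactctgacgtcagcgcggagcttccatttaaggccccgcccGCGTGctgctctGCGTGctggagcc
Gpi1: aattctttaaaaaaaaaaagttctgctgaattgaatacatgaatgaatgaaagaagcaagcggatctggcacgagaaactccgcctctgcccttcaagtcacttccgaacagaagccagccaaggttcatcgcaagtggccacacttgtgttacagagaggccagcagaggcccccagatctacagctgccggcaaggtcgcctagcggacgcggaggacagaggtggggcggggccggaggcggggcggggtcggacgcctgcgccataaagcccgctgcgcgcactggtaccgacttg
Hk2: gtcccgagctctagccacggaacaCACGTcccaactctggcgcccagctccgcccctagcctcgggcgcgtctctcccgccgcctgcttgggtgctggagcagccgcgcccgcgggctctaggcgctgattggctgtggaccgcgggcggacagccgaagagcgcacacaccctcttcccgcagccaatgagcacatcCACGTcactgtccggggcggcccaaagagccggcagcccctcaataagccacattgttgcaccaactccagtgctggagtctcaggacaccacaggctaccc
The Ldha window held 7 matches, Ankrd37 4, Pgk1 and Hk2 2 each, and Car9 1, whereas Gpi1 held 0. These 6 windows were picked, and only that of Hk2 belongs to a gene that fell. They therefore cannot show whether the letters separate genes that rose from genes that fell. Absence of a match says only that these letters are not in this window.

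The cultures carried epithelial markers. All 20 enterocyte, 12 stem cell, 10 goblet cell, 9 Paneth cell and 11 enteroendocrine markers were detected. The 9 mesenchymal markers together reached at most 6.43 TPM in a library, with Dcn and Lum at 0 throughout, and the 8 immune and endothelial markers at most 4.61 TPM, with Cdh5 at 0 throughout. Within groups, 2 libraries stood apart. Libraries were placed on a scale over all tested genes, with the mean of DMSO at 0 and that of DCA at 1. The library being placed was left out of these means, which widens the distance of a DMSO or DCA library from its own group. DMSO replicate 1 lay at 0.331 against -0.028 and 0.015 for the other DMSO libraries. CDCA replicate 3 lay at 0.522 against 0.101 and 0.171 for the other CDCA libraries. The CA libraries lay at 0.311 to 0.456 and the DCA libraries at 0.855 to 1.00. Beside the counts of calls in each comparison, the counts without both of these libraries are given. Both were picked after the data were seen, as lying towards DCA within their groups. Leaving out such libraries can lower the spread within groups and move group means away from DCA. These counts are therefore a description and not an independent check of the calls.

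In DMSO the enzymes were among the abundant transcripts and the other genes spanned a wide range. Glyceraldehyde-3-phosphate dehydrogenase (Gapdh), at a mean of 3684 TPM, ranked 29 of the 11952 tested rows, and the 9 most abundant genes of the set were all enzymes. The least abundant of the 34 was the vasodilator peptide gene Adm, at 4.93 TPM. Rows whose symbols mark them as copies or relatives of Gapdh, Eno1, Aldoa and Tpi1 reached at most 1.74 TPM. Copies under other symbols were not searched. No gene of the set had the same values as another row. Summed over the 14 enzymes, the mean level was 12189 TPM in DMSO (SD 838, n = 3), 15279 TPM (571) with CA, 14026 TPM (518) with CDCA and 18989 TPM (803) with DCA. The 20 other genes summed to 1322 ± 59.7, 1776 ± 24.8, 1713 ± 78.8 and 2444 ± 89.99 TPM in the same order. DMSO was the lowest and DCA the highest group mean in 30 of 34 genes (88.2%), an order found in 23.3% of all tested genes.

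**Figure D1:**
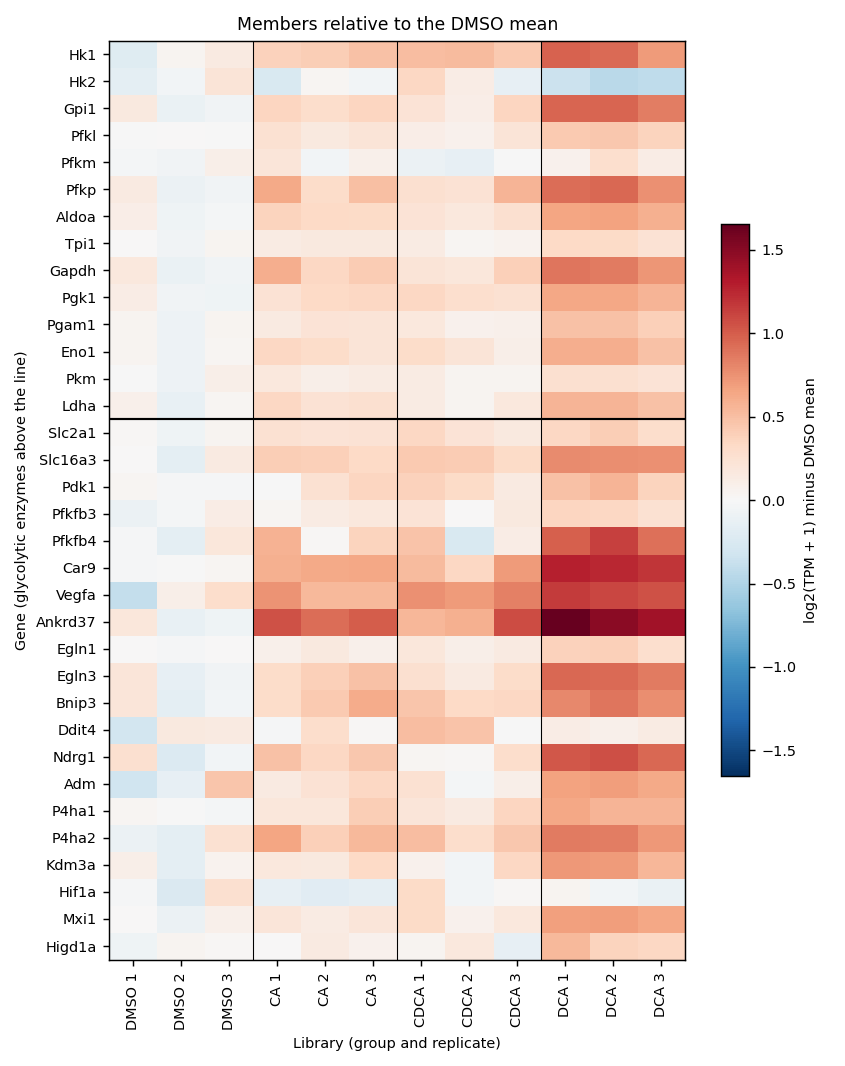
Heat map of the 34 genes (rows, enzymes above the line) in the 12 libraries (columns), as log2(TPM + 1) minus the mean of the 3 DMSO libraries. The DCA columns are the darkest red for most genes, with CA and CDCA between DMSO and DCA, while Hk2 is blue and Hif1a and Ddit4 are pale under DCA.

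Under the secondary bile acid DCA, compared with DMSO, nearly all of the set rose. Of the 14 enzymes 12 rose and 1 fell, and of the 20 other genes 18 rose and 0 fell, where 18.8% of all tested genes were called higher, 19.2% lower and 38% in either direction (limma, adjusted p under 0.05 over all tested genes). The median log2 fold change was 0.55 for the enzymes and 0.67 for the other genes, against -0.021 for all tested genes. Fold changes are on the log2(TPM + 1) scale, which understates changes of low genes, and carry 95% confidence intervals (CI). The DCA libraries lay wholly above the DMSO libraries in the same 12 enzymes and 18 other genes, against 24.2% of all tested genes, and below them in Hk2 alone against 26%. Of the 31 calls, 29 held under every alternative processing tried and without each library in turn. Without CDCA replicate 3 and DMSO replicate 1 the calls were 12 enzymes and 17 other genes higher, against 18.3% of all tested genes, and Hk2 lower.

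Among enzymes, the largest increase under DCA was that of glucose-6-phosphate isomerase, Gpi1. Gpi1 was at 856, 706 and 736 TPM in DMSO, at 976, 935 and 979 in CA, at 892, 820.1 and 974 in CDCA and at 1486, 1483 and 1373 in DCA. All 3 DCA libraries stood clear of the other 9, and DCA exceeded DMSO by 0.92 (CI 0.75 to 1.09, limma adjusted p = 1.81e-05). The platelet-type phosphofructokinase Pfkp, part of the committed step of glycolysis, followed. Pfkp was at 166, 139 and 144 TPM in DMSO, at 231, 184 and 211 in CA, at 179.8, 175 and 219 in CDCA and at 284, 289 and 252 in DCA. Its DCA libraries again lay above all others, with a difference from DMSO of 0.88 (CI 0.64 to 1.12, limma adjusted p = 0.000133). Hexokinase 1 (Hk1), which traps glucose as its phosphate, was a low transcript in all groups. Hk1 was at 8.74, 10.5 and 11.4 TPM in DMSO, at 13.6, 13.8 and 14.7 in CA, at 14.95, 15.00 and 14.1 in CDCA and at 21.1, 20.4 and 17.2 in DCA. The DMSO libraries were the lowest and the DCA libraries the highest, without overlap, and the rise was 0.87 (CI 0.64 to 1.11, limma adjusted p = 0.000133).

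Gapdh, the enzyme that yields NADH, was the most abundant of the set. Gapdh was at 4126, 3398 and 3527 TPM in DMSO, at 5542, 4669 and 4919.6 in CA, at 4261, 4166 and 4819 in CDCA and at 6801, 6639 and 6061 in DCA. DCA stood above every other library and the change from DMSO was 0.82 (CI 0.64 to 1.01, limma adjusted p = 4.78e-05). Aldolase A (Aldoa), which splits fructose-1,6-bisphosphate, showed a small spread within groups. Aldoa was at 1794, 1593 and 1626 TPM in DMSO, at 2151, 2105 and 2073 in CA, at 1953, 1883 and 2011 in CDCA and at 2632, 2636 and 2499.6 in DCA. Its groups were ordered DMSO, CDCA, CA and DCA with no overlap between any neighbours, and the DCA difference from DMSO was 0.63 (CI 0.52 to 0.75, limma adjusted p = 1.81e-05). Phosphoglycerate kinase (Pgk1) forms ATP. Pgk1 was at 1216, 1076 and 1061 TPM in DMSO, at 1314, 1399 and 1409 in CA, at 1409.7, 1348 and 1332 in CDCA and at 1742, 1743 and 1646 in DCA. The DMSO libraries were the lowest and DCA the highest, with CA and CDCA overlapping, and DCA differed from DMSO by 0.62 (CI 0.49 to 0.75, limma adjusted p = 3.45e-05). Lactate dehydrogenase A (Ldha), which makes lactate, was also highest under DCA. Ldha was at 1457, 1256 and 1405 TPM in DMSO, at 1730.5, 1619 and 1648 in CA, at 1506, 1419 and 1543 in CDCA and at 2018, 2024 and 1919 in DCA. The DCA libraries did not overlap any other group, with an increase of 0.54 (CI 0.40 to 0.67, limma adjusted p = 7.63e-05).

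Of the remaining enzymes that rose under DCA, Eno1 (enolase) rose by 0.56, Pgam1 (phosphoglycerate mutase) by 0.45 and Pfkl (liver-type phosphofructokinase) by 0.41. Tpi1 (triosephosphate isomerase) rose by 0.30 and Pkm (pyruvate kinase) by 0.25, all on the log2 scale. The limma adjusted p of these enzymes ran from 8.9e-05 to 0.0035. Thus the increases among the 12 enzymes ran from 0.25 to 0.92. Pfkm, the muscle-type phosphofructokinase, was at 20.01 ± 1.2 TPM in DMSO and 22.5 ± 1.7 in DCA (SD, n = 3), a difference of 0.16 (CI -0.046 to 0.36, limma adjusted p = 0.206) that missed the threshold. Hexokinase 2 (Hk2), usually described as the inducible hexokinase, went the other way. Hk2 was at 10.9, 11.96 and 14.5 TPM in DMSO, at 10.2, 12.7 and 12.03 in CA, at 16.00, 13.6 and 11.2 in CDCA and at 9.47, 8.88 and 9.02 in DCA. All 3 DCA libraries were below all 9 others, and Hk2 fell under DCA by 0.40 (CI -0.70 to -0.11, limma adjusted p = 0.0321). This call was lost with no filter on low values, with the replicate number as a block, and without DMSO replicate 2, DMSO replicate 3 or any of the DCA replicates, although the sign was the same in every setting.

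**Figure D2:**
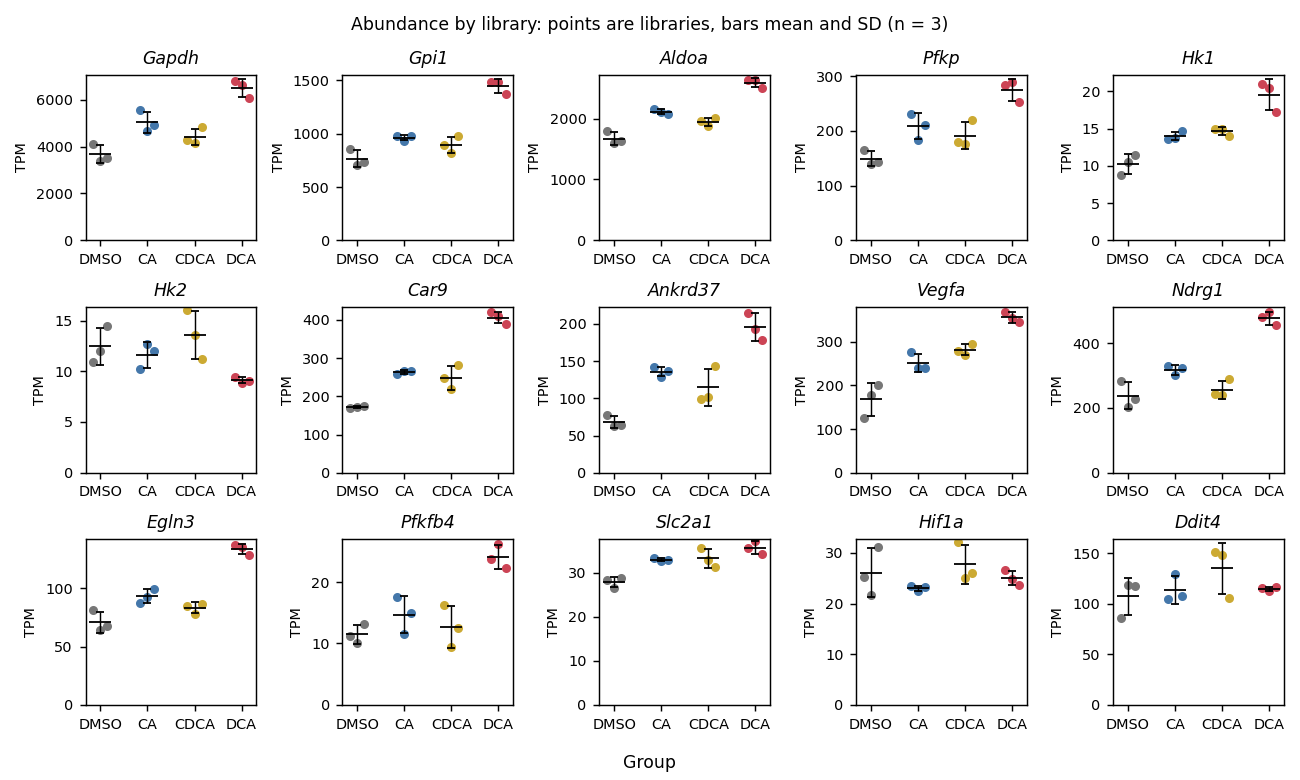
TPM in each library (points) with the group mean and SD (bars, n = 3) for 15 genes, each panel on its own axis from 0. DCA lies above the other groups in the panels of Gapdh to Hk1, Car9 to Ndrg1, Egln3 and Pfkfb4, lies below them for Hk2, and overlaps CDCA for Slc2a1, Ddit4 and Hif1a.

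Genes that feed or steer glycolysis rose under DCA as well. The glucose transporter Slc2a1 (GLUT1) had similar levels under all 3 acids. Slc2a1 was at 28.3, 26.5 and 28.7 TPM in DMSO, at 33.3, 32.6 and 32.95 in CA, at 35.6, 32.8 and 31.3 in CDCA and at 35.6, 37.1 and 34.2 in DCA. Every acid library lay above every DMSO library, but DCA and CDCA overlapped, and only DCA passed the test against DMSO, at 0.35 (CI 0.18 to 0.51, limma adjusted p = 0.00376). Pyruvate dehydrogenase kinase 1 (Pdk1) keeps pyruvate from mitochondrial oxidation. Pdk1 was at 64.2, 61.9 and 61.9 TPM in DMSO, at 62.3, 74.7 and 80.2 in CA, at 82.2, 77.9 and 69.8 in CDCA and at 87.9, 92.8 and 81.1 in DCA. DCA lay above DMSO without overlap and rose by 0.47 (CI 0.26 to 0.68, limma adjusted p = 0.00256), whereas CA overlapped DMSO through its replicate 1. Pfkfb4 makes or removes fructose-2,6-bisphosphate, the activator of phosphofructokinase. Pfkfb4 was at 11.2, 10.1 and 13.1 TPM in DMSO, at 17.5, 11.5 and 14.96 in CA, at 16.2, 9.43 and 12.6 in CDCA and at 23.7, 26.1 and 22.4 in DCA. It overlapped between DMSO, CA and CDCA and stood apart in DCA, with a difference from DMSO of 1.01 (CI 0.62 to 1.40, limma adjusted p = 0.00095). The lactate exporter Slc16a3 (MCT4) went from 71.9 ± 7.8 to 122 ± 1.31 TPM (SD, n = 3), a rise of 0.77 (CI 0.59 to 0.94, limma adjusted p = 4.94e-05). Pfkfb3, the paralogue of Pfkfb4, rose by 0.31 (CI 0.11 to 0.51, limma adjusted p = 0.0168), a call lost without DMSO replicate 1, DCA replicate 1 or DCA replicate 2, and without both DMSO replicate 1 and CDCA replicate 3.

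Of the hypoxia targets outside glycolysis, the gene with the largest change was Ankrd37, an ankyrin repeat protein gene used as a marker of HIF activity. Ankrd37 was at 77.6, 62.2 and 64.7 TPM in DMSO, at 142, 129 and 137 in CA, at 99.4, 102 and 144 in CDCA and at 215, 193 and 178 in DCA. DMSO was lowest, DCA highest and CA between them, without overlap, while CDCA overlapped CA through its replicate 3. The difference of DCA from DMSO was 1.51 (CI 1.22 to 1.797, limma adjusted p = 2.08e-05). Carbonic anhydrase 9 (Car9), a membrane enzyme that handles the acid made by glycolysis, was next. Car9 was at 169.7, 171 and 175 TPM in DMSO, at 258, 267 and 267 in CA, at 247, 218 and 281 in CDCA and at 420.1, 409.6 and 389.7 in DCA. The DMSO libraries lay close together, all acid libraries lay above them, and DCA lay above CA and CDCA. DCA differed from DMSO by 1.23 (CI 1.059 to 1.41, limma adjusted p = 3.24e-06). The vessel growth factor gene Vegfa had a wide spread in DMSO. Vegfa was at 126, 177 and 201 TPM in DMSO, at 276, 240.3 and 239 in CA, at 279, 270.0 and 295 in CDCA and at 368, 355 and 344 in DCA. DMSO replicate 1 was the lowest library, and DCA still lay above all others, with a rise of 1.10 (CI 0.82 to 1.39, limma adjusted p = 0.000107).

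Ndrg1, a stress-induced gene linked to differentiation, separated DCA from the rest. Ndrg1 was at 283, 202 and 229 TPM in DMSO, at 331, 300.3 and 322 in CA, at 242, 238 and 288 in CDCA and at 480.1, 495 and 454 in DCA. CDCA overlapped DMSO, CA lay above both, and DCA exceeded DMSO by 1.01 (CI 0.77 to 1.25, limma adjusted p = 6.59e-05). Among oxygen sensors, the prolyl hydroxylase Egln3 is itself a HIF target. Egln3 was at 81.2, 63.9 and 67.7 TPM in DMSO, at 87.2, 93.04 and 99.4 in CA, at 84.9, 78.1 and 87.05 in CDCA and at 137, 136 and 129 in DCA. The DMSO and CDCA libraries overlapped, and DCA was above all, with a change from DMSO of 0.91 (CI 0.72 to 1.11, limma adjusted p = 4.19e-05). Egln1, the main oxygen sensor of most cells, rose by 0.35 (CI 0.19 to 0.50, limma adjusted p = 0.00239). Bnip3, a mitophagy receptor, rose from 95.4 ± 12.3 to 168 ± 7.45 TPM (SD, n = 3), by 0.81 (CI 0.60 to 1.03, limma adjusted p = 0.000122). Further increases under DCA were 0.81 for P4ha2 and 0.59 for P4ha1 (collagen prolyl hydroxylases), 0.67 for Mxi1 (a MYC antagonist), 0.66 for Kdm3a (a histone demethylase), 0.66 for Adm and 0.42 for Higd1a (a mitochondrial protein), with limma adjusted p from 0.000134 to 0.00786.

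Hif1a, the gene of the HIF-1 alpha subunit, was not called in any of the 6 comparisons. Hif1a was at 25.3, 21.6 and 31.2 TPM in DMSO, at 23.4, 22.5 and 23.2 in CA, at 32.2, 25.1 and 26.1 in CDCA and at 26.6, 24.9 and 23.7 in DCA. DCA lay inside the DMSO range, and the difference from DMSO was -0.039 (CI -0.31 to 0.23, limma adjusted p = 0.833). The values are of RNA and say nothing of the HIF-1 alpha protein. Ddit4, which restrains mTOR signalling, likewise overlapped. Ddit4 was at 85.9, 119 and 117 TPM in DMSO, at 104, 129.6 and 107 in CA, at 151, 148 and 106 in CDCA and at 115, 112 and 116 in DCA. DMSO replicate 1 was the lowest library and the CDCA replicates 1 and 2 were the highest, and DCA differed from DMSO by 0.11 (CI -0.21 to 0.43, limma adjusted p = 0.587).

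**Figure D3:**
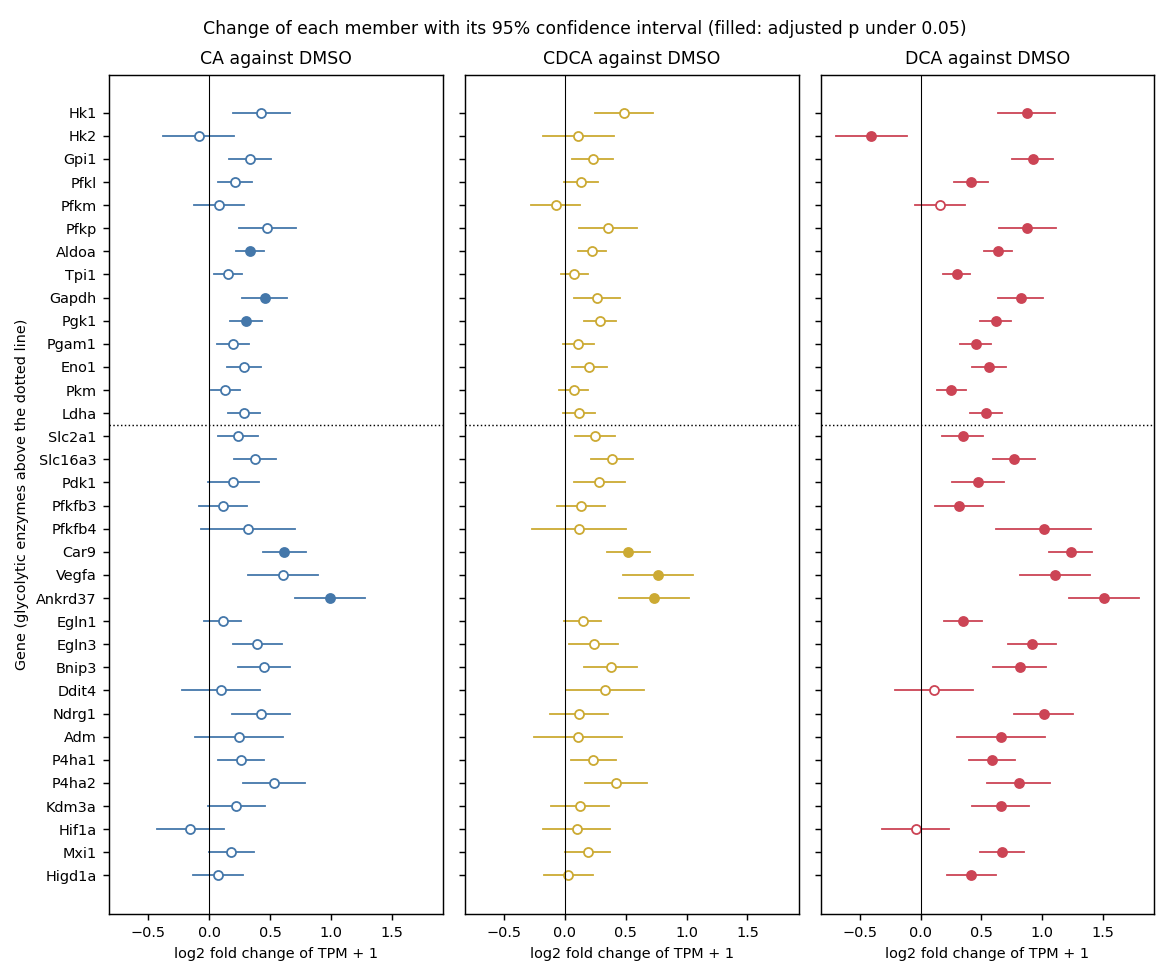
Log2 fold change of each gene against DMSO (points) with its 95% CI (lines), for CA, CDCA and DCA; filled points have a limma adjusted p under 0.05. Under DCA 31 of 34 points are filled, all to the right of 0 except Hk2, while under CA 5 and under CDCA 3 are filled.

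Other features of the libraries moved with the set. Enterocyte markers summed to 3063 to 5016 TPM in DMSO and 8330 to 10815 TPM in DCA, with 19 of 20 called higher, against 18.8% of all tested genes. Stem cell markers summed to 542 to 1115 TPM in DMSO and 182 to 206 TPM in DCA, with 11 of 12 called lower, and proliferation genes to 1195 to 1592 and 683 to 696 TPM, with 18 of 18 called lower, against 19.2% of all tested genes (limma). Called lower under DCA as well were 7 of 9 Paneth cell, 6 of 10 goblet cell, 6 of 11 enteroendocrine and 4 of 6 tested tuft cell markers, and 1 enteroendocrine marker was called higher. The part of these marker changes in the results on glycolysis and hypoxia genes was not tested, and in bulk RNA a shift in the number of cells of a type cannot be told apart from a shift in RNA per cell. Mitochondrially encoded RNA was 17.2 ± 2.74% of the total TPM in DMSO and 11.8 ± 0.814% in DCA (SD, n = 3). With its 13 rows left out and the remainder rescaled, 12 enzymes and 18 other genes were still called higher under DCA, with medians of 0.46 and 0.59 where the median of all tested genes became -0.10.

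**Figure D4:**
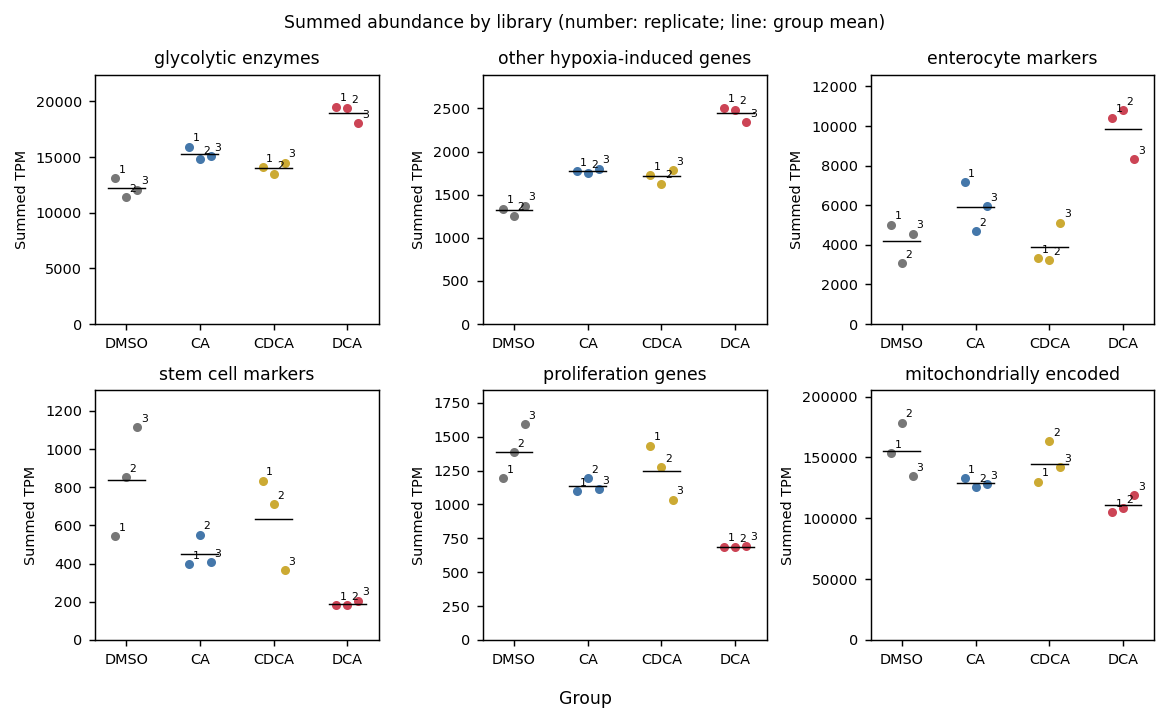
Summed TPM of the enzymes, the other hypoxia-induced genes and 4 marker lists in each library (points, numbered by replicate; line: group mean), each axis from 0. Enzymes, other hypoxia-induced genes and enterocyte markers are highest in DCA, where stem cell markers, proliferation genes and mitochondrially encoded RNA are lowest.

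CA against DMSO asked for the response to a primary bile acid, and 5 of the 34 genes passed the test. Of 14 enzymes 3 rose, and of 20 other genes 2 rose, with 0 lower, where 0.569% of all tested genes were called higher and 0.00837% lower (limma). Aldoa rose by 0.34 (CI 0.22 to 0.45, limma adjusted p = 0.019), Gapdh by 0.45 (CI 0.27 to 0.64, limma adjusted p = 0.0382) and Pgk1 by 0.30 (CI 0.17 to 0.43, limma adjusted p = 0.0481). Car9 rose by 0.62 (CI 0.44 to 0.79, limma adjusted p = 0.00903) and Ankrd37 by 0.99 (CI 0.71 to 1.28, limma adjusted p = 0.00903). The CA libraries lay wholly above the DMSO libraries in 11 enzymes and 13 other genes, against 11.8% of all tested genes, and wholly below in 0 against 5.21%. Medians were 0.28 for the enzymes and 0.25 for the other genes, against 0.028 for all tested genes. At an unadjusted p under 0.05 stood 12 enzymes and 10 other genes, against 14.8% of all tested genes (limma).

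These CA calls changed as single libraries were left out, which also leaves fewer libraries to test. The estimates moved less. Over all settings and libraries left out they ran from 0.28 to 0.39 for Aldoa, 0.38 to 0.54 for Gapdh and 0.24 to 0.36 for Pgk1. For Car9 the range was 0.56 to 0.63 and for Ankrd37 0.93 to 1.09. The count of enzymes went from 3 to 6 without DMSO replicate 1, to 1 without DMSO replicate 3 and to 0 without DMSO replicate 2 or any of the CA replicates. That of the other genes went from 2 to 6 without DMSO replicate 1, to 1 without DMSO replicate 2, to 5 without DMSO replicate 3 and to 0 without CA replicate 1 or 3. Without both DMSO replicate 1 and CDCA replicate 3 the counts were 7 and 8, while the share of all tested genes called higher went from 0.569% to 5.18% and of those called lower from 0.00837% to 2.93%. None of the 5 calls held both under every setting and without each library. Car9 kept its call without each DMSO replicate and without CA replicate 2, and lost it without CA replicate 1 or 3, with a limma adjusted p of at most 0.0595. Enterocyte markers summed to 4690 to 7163 TPM in CA. Their median was 0.63, with 0 of 20 called, 11 at an unadjusted p under 0.05 (limma) and 20 above 0. Also above 0 were 9 of 10 goblet cell and 7 of 11 enteroendocrine markers, where 6726 of 11952 tested genes were. Of 12 stem cell markers, 18 proliferation genes and 9 Paneth cell markers 0 lay above 0, with medians of -0.50, -0.27 and -0.14 and 0 called. The part of these marker changes in the CA result was not tested.

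CDCA against DMSO gave 3 calls among the 34 genes. Of 20 other genes 3 rose and 0 fell, and 0 of 14 enzymes were called in either direction, where 0.51% of all tested genes were called higher and 0.0837% lower (limma). Vegfa rose by 0.77 (CI 0.48 to 1.05, limma adjusted p = 0.02), Ankrd37 by 0.73 (CI 0.45 to 1.02, limma adjusted p = 0.0255) and Car9 by 0.52 (CI 0.35 to 0.70, limma adjusted p = 0.0101). Among the enzymes 7 and among the other genes 12 had an unadjusted p under 0.05, against 9.77% of all tested genes (limma). Of the enzymes, Hk1 differed by 0.49 (CI 0.25 to 0.72, limma adjusted p = 0.0754), Pgk1 by 0.29 (CI 0.16 to 0.42, limma adjusted p = 0.0547) and Aldoa by 0.22 (CI 0.11 to 0.34, limma adjusted p = 0.104). CDCA libraries lay wholly above DMSO in 8 enzymes and 10 other genes, against 6.97% of all tested genes, and wholly below in 0 against 3.03%. The medians were 0.17 for the enzymes, 0.23 for the other genes and 0.018 for all tested genes. Enterocyte markers had a median of -0.050 in this comparison, with 7 of 20 above 0 and 0 called, and summed to 3211 to 5110 TPM in CDCA. Of 11 enteroendocrine markers 3 were called lower, against 0.0837% of all tested genes, and no other marker list had a call (limma). Above 0 were 0 of 18 proliferation genes, 0 of 10 goblet cell, 3 of 12 stem cell and 5 of 9 Paneth cell markers, where 6612 of 11952 tested genes were. The part of these marker changes in the CDCA result was not tested.

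Of the CDCA calls, that of Car9 held without each library in turn, and was lost in a fit of the 6 libraries compared (limma adjusted p = 0.182), as were the other 2. Vegfa and Ankrd37 were also lost with no filter and with the replicate number as a block, and Ankrd37 when trend and robust moderation were dropped or libraries were scaled by median ratio. Vegfa was lost without DMSO replicate 2 or any of the CDCA replicates, and Ankrd37 without DMSO replicate 2 or 3. The count of the other genes was 1 without DMSO replicate 2, 4 without DMSO replicate 1 or 3 and 2 without any of the CDCA replicates, while that of enzymes was 2, Aldoa and Pgk1, without DMSO replicate 1 and 1, Hk1, with median-ratio scaling. With those libraries that stood apart (CDCA replicate 3, DMSO replicate 1) left out together, the counts were 1 enzyme, Pgk1, and 3 other genes, against 0.563% of all tested genes, and the 3 differences were 0.54 for Vegfa, 0.66 for Ankrd37 and 0.42 for Car9. The comparisons against DMSO share the same 3 control libraries, so their agreement is not independent.

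The 3 acids were also compared with each other at the same labelled dose and time, as 3 pairs over the 34 genes with p-values adjusted over all tested genes of each pair. CDCA and CA, which differ by a hydroxyl group, gave 0 calls among 34 genes in either direction, where 0.0335% of all tested genes were called, 0.00837% higher and 0.0251% lower (limma). At an unadjusted p under 0.05 stood 2 enzymes, Gapdh and Ldha, and 1 other gene, Ndrg1, together 3 of 34 where 7.2% of all tested genes did, a share near that background. The difference of CDCA from CA was -0.19 (CI -0.38 to -0.006) for Gapdh, -0.16 (CI -0.29 to -0.03) for Ldha, -0.31 (CI -0.55 to -0.074) for Ndrg1 and -0.26 (CI -0.55 to 0.029) for Ankrd37. Over the 34 genes the intervals reached from -0.59 to 0.55, so differences of that size cannot be set aside, and the lack of calls does not show that CA and CDCA act alike. CDCA lay wholly below CA in Aldoa, Ldha, Egln3 and Ndrg1 and wholly above it in Hif1a, 4 and 1 of 34 genes against 6.47% and 4.19% of all tested genes. Without CDCA replicate 3 and DMSO replicate 1, Ankrd37 and Ndrg1 were called lower and Ddit4 higher in CDCA, where 2.88% of all tested genes were then called lower and 0.807% higher (limma).

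DCA and CA differ by a hydroxyl group at another position, and most of the set was called higher in DCA. Called higher in DCA were 10 enzymes and 13 other genes, with 0 called lower. Of all tested genes 5.79% were called higher, 8.94% lower and 14.7% in either direction (limma). Gpi1 differed by 0.59 (CI 0.42 to 0.76, limma adjusted p = 0.00211), Car9 by 0.62 (CI 0.44 to 0.79, limma adjusted p = 0.00188), Ndrg1 by 0.58 (CI 0.34 to 0.82, limma adjusted p = 0.0066) and Pfkfb4 by 0.69 (CI 0.30 to 1.08, limma adjusted p = 0.0246). Slc2a1, at 0.11 (CI -0.058 to 0.28), and Pdk1, at 0.27 (CI 0.06 to 0.48), were not called. DCA lay wholly above CA in 12 enzymes and 19 other genes, against 16.9% of all tested genes, and wholly below in Hk2 alone against 28.7%. These counts fell whenever a library was left out, to 7, 4 and 5 enzymes without CA replicates 1, 2 and 3 and to 3, 3 and 9 without DCA replicates 1, 2 and 3. For the other genes they fell to 8, 5 and 8 and to 5, 5 and 8 in the same order, and 8 of the 23 calls held throughout. Without CDCA replicate 3 and DMSO replicate 1 the same 23 genes were called, against 9.09% of all tested genes higher. In this comparison 18 of 18 proliferation genes, 10 of 10 goblet cell and 7 of 12 stem cell markers were called lower in DCA. So were 6 of 11 enteroendocrine and 3 of 9 Paneth cell markers. Called higher were 1 enteroendocrine marker and 5 of 20 enterocyte markers, the latter with a median of 0.72 (limma). Their part in the result was not tested.

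DCA and CDCA carry the same number of hydroxyl groups at different positions, and most of the set was again called higher in DCA. The calls were 12 enzymes and 13 other genes higher and Hk2 lower, against 12.8% and 15% of all tested genes, and 27.8% in either direction (limma). Ndrg1 differed by 0.90 (CI 0.66 to 1.14, limma adjusted p = 0.000573), Pfkfb4 by 0.89 (CI 0.51 to 1.28, limma adjusted p = 0.00371), Ankrd37 by 0.78 (CI 0.49 to 1.062, limma adjusted p = 0.00183) and Car9 by 0.71 (CI 0.54 to 0.89, limma adjusted p = 0.00044). Hk2 fell by 0.51 on the log2 scale from CDCA to DCA (CI -0.81 to -0.22, limma adjusted p = 0.0137). Vegfa, the gene with the largest CDCA difference from DMSO, was at 0.34 (CI 0.051 to 0.63) between DCA and CDCA and missed the threshold, but it was called with median-ratio scaling, in a fit of the 6 libraries compared, and without CDCA replicate 3 and DMSO replicate 1. Leaving out those 2 libraries gave 11 enzymes and 14 other genes higher, against 15.2% of all tested genes, with Pkm lost and Vegfa gained, and Ddit4 joined Hk2 as lower in DCA, against 22.1%. No overlap with DCA higher was found in 13 enzymes and 16 other genes, against 21.3% of all tested genes, and with DCA lower in Hk2 alone against 27.1%. Leaving out each library gave 10 to 12 enzymes and 11 to 13 other genes, and 21 of 26 calls held throughout. Between DCA and CDCA 19 of 20 enterocyte markers were called higher in DCA, with a median of 1.44. Called lower were 12 of 12 stem cell, 18 of 18 proliferation and 7 of 9 Paneth cell markers (limma). The part of these marker changes in the result was not tested.

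Shares of related genes in their family's summed TPM were described without a test. Of the summed TPM of the hexokinase genes Hk1, Hk2, Hk3 and Hkdc1, most was Hkdc1, a hexokinase domain gene outside the 34, with 70.5 ± 4.50% in DMSO and 80.4 ± 0.463% in DCA (SD, n = 3). Hk2 made up 16.2 ± 2.40% in DMSO and 6.27 ± 0.465% in DCA, and Hk1 13.3 ± 2.19% and 13.4 ± 0.520%. The 4 genes summed to 77.3 ± 5.35 TPM in DMSO and 146 ± 10.6 in DCA, so the lower Hk2 accompanied a higher total of these genes. Among phosphofructokinases, the Pfkp share was 54.7 ± 2.38% in DMSO and 63.1 ± 1.05% in DCA, and the DCA libraries lay above the DMSO libraries. The Pfkfb4 share of the 4 PFKFB genes was 27.2 ± 1.57% and 39.0 ± 2.43%, and the Egln3 share of the HIF prolyl hydroxylases 51.2 ± 5.10% and 62.3 ± 0.542%.

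Hif1a was 71.7 ± 3.92% of the summed TPM of the HIF alpha subunits in DMSO and 55.0 ± 1.14% in DCA, while Epas1 (HIF-2 alpha) was 20.9 ± 2.37% and 31.9 ± 0.930% and Hif3a 7.46 ± 1.59% and 13.1 ± 0.279% (SD, n = 3). Epas1 was at 7.69, 7.25 and 7.51 TPM in DMSO, at 11.00, 8.64 and 10.9 in CA, at 7.54, 8.08 and 11.3 in CDCA and at 14.6, 15.01 and 14.00 in DCA, and it differed between DCA and DMSO by 0.87 (CI 0.58 to 1.16, limma adjusted p = 0.000406). DCA did not overlap DMSO in any of these 3 shares. Pdk1 kept 64.0 ± 0.984% and 63.8 ± 0.661% of the pyruvate dehydrogenase kinases, whereas Pdk3 went from 11.6 ± 0.836% to 5.05 ± 0.329%. Ldha (99.8% in DMSO) and Eno1 (98.9%) made up nearly all of their families in each group, and Pkm 81.1 ± 1.70% in DMSO and 79.3 ± 1.30% in DCA beside the liver form Pklr.

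**Figure D5:**
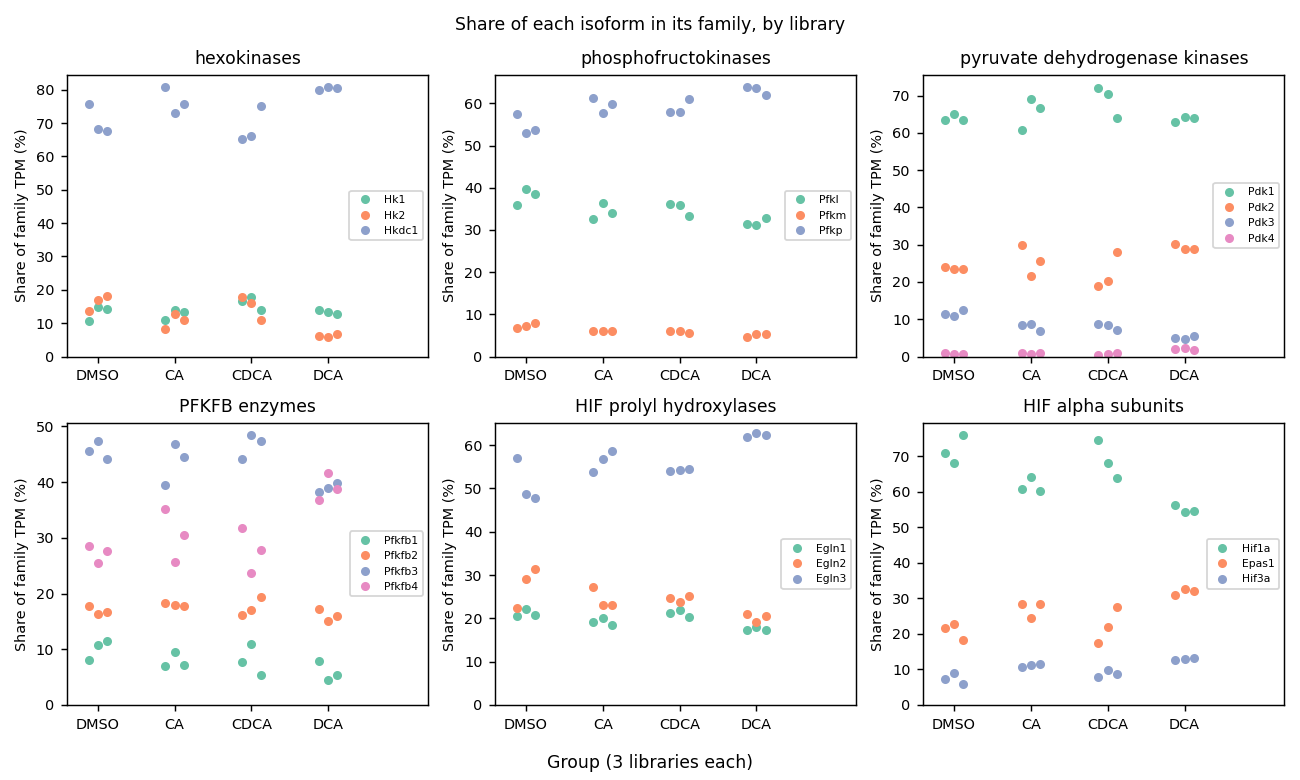
Share of each gene in the summed TPM of its family (percent, each axis from 0), with 1 point per library. Hk2 and Pdk3 take a smaller share in DCA than in DMSO, Pfkp, Pfkfb4, Egln3, Epas1 and Hif3a a larger one, and Pdk1 a similar one.

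Other genes of both pathways were described from lists that do not include the 34. Of 32 further glycolysis and pyruvate genes 26 were tested, and under DCA 14 rose and 1 fell, against 18.8% and 19.2% of all tested genes, with a median of 0.42. None of the 26 was called under CA or CDCA (limma). At an unadjusted p under 0.05 stood 8 under CA, against 14.8% of all tested genes, and 4 under CDCA, against 9.77%. Phosphoglucomutase Pgm1 differed between DCA and DMSO by 0.94 (CI 0.75 to 1.14, limma adjusted p = 3.12e-05), the aldolase Aldoc by 1.056 (CI 0.80 to 1.31, limma adjusted p = 7.29e-05) and Hkdc1 by 1.09 (CI 0.80 to 1.39, limma adjusted p = 0.000134). Pdha1, a subunit of the pyruvate dehydrogenase that Pdk1 inhibits, rose by 0.51 (CI 0.36 to 0.65, limma adjusted p = 0.00016). Of the kinases that inhibit this enzyme, Pdk2 rose by 0.76 (CI 0.47 to 1.060, limma adjusted p = 0.000989) and Pdk3 fell by 0.64 on the log2 scale (limma adjusted p = 0.000836).

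Of 49 further hypoxia genes 40 were tested, and under DCA 25 rose and 2 fell, against 18.8% and 19.2% of all tested genes, with a median of 0.37. Called higher were 0.569% of all tested genes under CA and 0.51% under CDCA. Under CA 2 of the 40 rose, Hif3a by 0.50 (CI 0.29 to 0.72, limma adjusted p = 0.0477) and Rnaset2a by 0.53 (CI 0.30 to 0.76, limma adjusted p = 0.0487), and under CDCA 2 rose, Rnaset2a by 0.59 (CI 0.36 to 0.82, limma adjusted p = 0.0244) and Stc2 by 0.53 (CI 0.32 to 0.75, limma adjusted p = 0.0273). Ero1a, an oxidase of protein folding, was at 135, 118 and 132 TPM in DMSO, at 155, 184 and 179 in CA, at 193, 169 and 156 in CDCA and at 263, 258 and 240.2 in DCA. All acid libraries exceeded the DMSO libraries, and DCA differed from DMSO by 0.98 (CI 0.77 to 1.18, limma adjusted p = 3.21e-05). Hif3a rose by 0.93 (CI 0.72 to 1.15, limma adjusted p = 5.75e-05), the mitophagy receptor Bnip3l by 0.94 (CI 0.66 to 1.22, limma adjusted p = 0.000199) and Rnaset2a by 0.79 (CI 0.56 to 1.02, limma adjusted p = 0.000183). The endothelin gene Edn1 was at 3.93, 5.79 and 8.46 TPM in DMSO, at 4.55, 4.32 and 4.72 in CA, at 6.29, 5.67 and 3.09 in CDCA and at 1.21, 0.966 and 1.204 in DCA. It fell under DCA by 1.68 on the log2 scale (limma adjusted p = 0.000224), and the other gene that fell was the cell division gene Anln, chosen here after its value was seen, by 0.88.

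The spread within groups differed between groups, whereas the main fit used a shared estimate of the spread of each gene for all 4 groups. Its p-values and intervals therefore do not follow the spread of the groups compared. The median coefficient of variation (SD over mean) of the enzymes was 7.03% in DMSO, 3.64% in CA, 4.61% in CDCA and 3.49% in DCA, and that of the other genes 11.5%, 5.82%, 8.45% and 4.19%. DCA replicate 3 was the lowest DCA library in 12 of 14 enzymes and 18 of 20 other genes, and DMSO replicate 2 the lowest DMSO library in 10 and 12. DCA replicate 3 had the highest mitochondrial share of the DCA libraries, 12.7%, and DMSO replicate 2 that of the DMSO libraries, 20.1%, as CDCA replicate 2 did at 18.1%, which was the lowest CDCA library in 9 enzymes and 14 other genes. In CA the order of the enzymes differed. Replicate 1, with the highest share of 14.4%, was the highest CA library in 8 of 14 enzymes and the lowest in 5. Replicate 2, with the lowest share of 13.6%, was the lowest in 7. Among the 20 other genes, replicates 1 and 2 were each lowest in 9. The part of the mitochondrial share in this order was not tested.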

How the data were processed

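RNA was sequenced as poly(A)-selected, strand-marked paired-end libraries, per the labels' protocols. Each deposited file lists gene symbols with TPM values for 1 library. TPM was inferred as the unit, since values are not whole numbers and total 889156 to 936841 per library. The submitters' processing notes name Salmon 1.8.0 and GRCm39. For annotation and strand setting, details were not given in the sources used here.

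Values were taken from the deposited TPM as log2(TPM + 1). The 11952 rows that reached 1 TPM in 3 or more libraries entered a limma fit (3.58.1, R 4.3.3) of 4 group means over 12 libraries and trend and robust moderation. Tests were two-sided with Benjamini-Hochberg adjustment over all tested rows of each of 6 comparisons at 0.05. On data simulated for DCA against DMSO with 11952 genes, 87 of 100 genes changed by 1 log2 unit were recovered. So were 37 of 100 changed by 0.5, and 5 of 11752 unchanged genes were called. Errors were drawn independently for each gene, and far fewer genes were changed than the 4545 called in the data. These shares are therefore not the power or the error rate of the real comparison.

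The 34 genes and all lists were chosen with earlier results of these data known. Values in every library were given for genes called under CA or CDCA, the 4 enzymes and 6 other genes with the largest DCA change, genes called lower, and Hif1a, Pdk1, Ldha and Slc2a1. Up to 6 further genes per list were named by smallest p under DCA; others outside this rule (Ddit4, Stc2, Epas1, Anln) were chosen after their values were seen, and some genes of the lists are not reported here by name. Family shares carry no test. Alternatives were median-ratio scaling, a pseudocount of 0.1, no filter, the replicate number as a block, fits of the 6 libraries compared, limma without trend and robust moderation, mitochondrial rows left out with rescaling, and each library left out. Leaving out CDCA replicate 3 and DMSO replicate 1 together was added after seeing the data. Promoter windows were searched with Python 3.11.15.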

Additional observations from a re-analysis of the deposited data

How the results depend on the processing

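Under DCA against DMSO the calls were 12 enzymes in all settings and without each library, and 17 to 18 other genes. The lists' medians kept their sign in all 6 comparisons under every setting and without each library, and no named gene with a call changed direction. For CA against DMSO, 3 enzymes were called and then 0 with median-ratio scaling, in the fit of 6 libraries and without trend and robust moderation, 1 with no filter, 1 without mitochondrial rows and 7 without CDCA replicate 3 and DMSO replicate 1. The 2 other genes became 4 with median-ratio scaling and 8 without those 2 libraries. For CDCA against DMSO, 0 enzymes became 1 with median-ratio scaling and 1 without those 2 libraries, and 3 other genes became 1 with no filter and 0 in the fit of 6 libraries. For CDCA against CA, 0 other genes called higher became 1 without those 2 libraries. The cause was not tested.

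Without each library in turn, the ranges of enzymes and other genes called higher against DMSO were, with CA, 0 to 6 and 0 to 6, with CDCA 0 to 2 and 1 to 4, with DCA 12 to 12 and 17 to 18. Between acids they were 0 to 0 and 0 to 0 for CDCA against CA, 3 to 9 and 5 to 8 for DCA against CA and 10 to 12 and 11 to 13 for DCA against CDCA.

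Same-numbered libraries showed no common deviation from their group means (18 pairs, correlations from -0.378 to 0.109, 3 of them over 0.1). The 36 pairs with other numbers ran from -0.251 to 0.426, with 9 over 0.1. Deviations from a mean of 3 libraries are tied to each other, so this check cannot exclude a pairing. With the replicate number as a block, the counts of enzymes and other genes against DMSO were, with CA, 2 and 2, with CDCA 0 and 1 and with DCA 12 and 18. Between acids they were 0 and 0 for CDCA against CA, 9 and 11 for DCA against CA and 12 and 13 for DCA against CDCA.

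Over all genes, DCA against DMSO gave 2245 higher and 2300 lower calls, and 1874 and 3348 without mitochondrial rows, which moved the median of all genes to -0.10. In the same way DCA against CDCA gave 1532 and 1790, then 1362 and 2744, with a median of -0.11, and CDCA against CA 1 and 3, then 2 and 3. Without CDCA replicate 3 and DMSO replicate 1, CDCA against CA gave 96 and 343, CA against DMSO 616 and 348 in place of 68 and 1, DCA against CA 1081 and 1749 and DCA against CDCA 1809 and 2630. CA against DMSO gave 29 and 2 with median-ratio scaling, 24 and 2 with no filter, 45 and 1 in the fit of 6 libraries, 31 and 2 without trend and robust moderation and 39 and 2 without mitochondrial rows. CDCA against DMSO gave 38 and 11 with no filter, 38 and 7 with the block and 19 and 3 in the fit of 6 libraries, and DCA against CA 455 and 723 with no filter and 1299 and 2115 in the fit of 6 libraries. Median-ratio scaling changed CDCA against DMSO from 61 and 10 to 60 and 26, and DCA against CA from 692 and 1069 to 1275 and 1257. Depth is unknown, so the error of a single low value, as for Adm or Hif3a, cannot be stated.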
